A study of Homo sapiens with 9 samples.

Results

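Transcripts of 10 genes for the heat shock chaperones of the cytosol and of the mitochondrial matrix were compared in MDA-MB-231 cells, an established human breast cancer line, kept in conditioned or plain medium. The genes were taken by symbol as a known family: HSPA1A, HSPA1B, HSPA8, HSPH1, HSP90AA1, HSP90AB1, DNAJB1, HSPB1, HSPD1 and HSPE1. They are 10 of the 58735 genes of the table, and all 10 were among the 13912 genes that passed the filter on low values, in every group and not through one alone. Limma, a linear model fitted over all tested genes, called 0 of the 10 in any of the 3 comparisons between media, and the few calls made by another test or without 1 library are given beside their genes.

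The TIS CM group received medium conditioned by MDA-MB-231 cells that nocodazole, a drug that depolymerizes microtubules, had made senescent (100 ng/ml for 72 h, therapy-induced senescence). The Cont CM group received medium conditioned by non-senescent cells of the line, and the No CM group received medium alone. Each group held 3 libraries of wild-type cells grown in DMEM with 10% fetal bovine serum, and the labels name no cell other than MDA-MB-231. The labels give 72 h in the test medium and the design text gives 48 h. The study asked what the secretions of the senescent cells do to cells of the same line. Whether the replicates were separate cultures is not stated, so p-values reflect how far these libraries differ among themselves, which may be technical.

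Molecular chaperones bind unfolded stretches of proteins and help them fold, or hand them on for degradation. Hsp70 proteins grip short hydrophobic stretches in a cycle driven by ATP, J-domain proteins bring them clients and start ATP hydrolysis, and exchange factors such as Hsp110 release the product. Hsp90 receives partly folded clients, many of them kinases and steroid receptors, while the chaperonin of the mitochondrion encloses proteins in a barrel that a co-chaperonin caps. Heat, proteotoxic drugs and other stresses raise many of these genes through the transcription factor HSF1, which binds heat shock elements, inverted repeats of nGAAn. Cancer cells commonly carry high levels of these proteins.

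Stretches of promoter that carry such repeats are shown because the family is known for its answer to HSF1. The pattern searched was 2 inverted units, GAANNTTC or TTCNNGAA, in the 250 bases upstream of each start site of RefSeq (build GRCh38.p14). Both patterns read the same on either strand. Of 10 genes, 8 had at least 1 such window, and HSPE1 and HSPH1 had none in those 250 bases, while 13.964% of all 27305 genes with a window did. For HSPE1 those bases were chromosome 2, 197500129 to 197500378, and the HSPD1 window with matches, 197499841 to 197500090, lies just upstream of them. The longer pattern of 3 units, GAANNTTCNNGAA or TTCNNGAANNTTC, which contains overlapping copies of the shorter one, was present for HSPA8, HSP90AA1, HSP90AB1 and HSPD1, 4 of the 10 genes, and for 0.557% of all genes. By window the shorter pattern was in 8 of 16 windows of the 10 genes and 11.582% of all 35116, and the longer in 4 of 16 and 0.441%. The stretches below have their matched bases in capitals, lie outside the exons of GENCODE 29 and reach up to 40 bases either side of the matches. They were chosen because they hold a match.
HSPA1A, chr6:31815397-31815463, plus strand: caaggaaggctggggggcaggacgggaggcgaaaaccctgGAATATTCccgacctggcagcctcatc
HSPA1B, chr6:31827593-31827680, plus strand: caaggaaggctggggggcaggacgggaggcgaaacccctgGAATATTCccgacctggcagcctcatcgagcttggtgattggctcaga
HSP90AB1, chr6:44247738-44247865, plus strand: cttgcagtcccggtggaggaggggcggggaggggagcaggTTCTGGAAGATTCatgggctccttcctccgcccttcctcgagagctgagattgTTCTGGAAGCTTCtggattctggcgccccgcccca
HSPA8, chr11:123062336-123062386, minus strand: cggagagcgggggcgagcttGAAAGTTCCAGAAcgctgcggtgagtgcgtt
DNAJB1, chr19:14518421-14518514, minus strand: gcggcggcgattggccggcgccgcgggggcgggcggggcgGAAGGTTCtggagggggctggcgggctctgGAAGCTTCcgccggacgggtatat
HSPB1, chr7:76302451-76302538, plus strand: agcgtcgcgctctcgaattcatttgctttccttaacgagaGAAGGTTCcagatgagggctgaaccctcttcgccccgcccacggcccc
HSPA1A and HSPA1B, which stand beside each other on chromosome 6, share the same matched letters, at bases -106 to -99 from the RefSeq start for HSPA1A and -105 to -98 for HSPA1B. HSP90AB1 has a match of 3 units at each of 2 places. In HSPA8 another match of 3 units, at bases -55 to -43, lies past the first base of the window that falls in an annotated exon, and is not printed. The HSP90AA1 and HSPD1 matches also end at or past such a base and are named without their sequence. Whether these matches themselves lie in exons was not tested. A match is a run of letters and does not show that a factor binds there.

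The libraries held from 32636708 to 39189036 fragments on genes, and the gene with the fewest, HSPA1A, still had between 1050 and 1475. Counting error alone was then at most 3.09% of the level for HSPA1A and 0.345% for HSP90AB1, the gene with the most. The mesenchymal marker VIM stood at a mean of 365 FPKM, as the labelled line is known for. Of 5 markers listed as low in the line, the oestrogen receptor gene ESR1 had a mean of 0.00218 FPKM, PGR 0.0012 and CDH1 0.636 FPKM. The other markers of that list, EPCAM and GATA3, were higher, at 8.54 and 5.61 FPKM. These 5 summed to between 12.6 and 16.6 FPKM in any library, and 5 fibroblast markers to between 2.06 and 2.76 FPKM. Markers of immune cells summed to between 3.96 and 6.18 FPKM, and those of endothelium to between 1.38 and 1.96 FPKM. Most of the immune sum was CD14, at a mean of 4.20 FPKM, beside CSF1R at 0.841 and PTPRC at 0.0135 FPKM. Cont CM replicate 1 stood apart. Its log2 values correlated with those of the other Cont CM libraries at r = 0.987 and r = 0.989 across genes, while the other 7 pairs of libraries within a group lay between r = 0.992 and r = 0.993. Cont CM replicate 2 had a trend with GC content and gene length in its log2 deviations from each gene's mean over the 9 libraries. That trend held 17.7% of the variance of these deviations, against between 0.639% and 5.77% in the others. In bulk RNA a smaller share of cells carrying a transcript and less of it per cell cannot be told apart.

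Levels are given as FPKM, which divides by depth and by 1 length per gene, such as 4849 bases for HSPA8 and 2483 for HSPA1A. Genes can be set beside each other only as far as that length matches the transcripts the cells make, which was not tested. The Hsp90 and constitutive Hsp70 genes led by far. HSP90AB1, the constitutive cytosolic Hsp90, averaged 871 FPKM over the 9 libraries, HSPA8, the constitutive Hsp70 also known as Hsc70, 429.6 FPKM, and HSP90AA1, the inducible Hsp90, 378 FPKM. Next came HSPB1, the small heat shock protein Hsp27, with 153 FPKM and HSPD1, the mitochondrial chaperonin Hsp60, with 142 FPKM. DNAJB1, a J-domain partner of Hsp70, averaged 58.7 FPKM. HSPH1, the exchange factor Hsp105, averaged 25.1 FPKM, HSPE1, the co-chaperonin Hsp10, 22.2 FPKM, and the stress-inducible Hsp70 genes HSPA1B and HSPA1A 18.8 and 13.9 FPKM.

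The order held with gaps and ties. The ranges of the 9 libraries overlapped between HSPA8 and HSP90AA1, HSPB1 and HSPD1, HSPH1 and HSPE1, HSPE1 and HSPA1B, and HSPA1B and HSPA1A, so these neighbours were not separated by their range. Within single libraries HSPA1B was above HSPA1A in 9 of 9 and HSPB1 above HSPD1 in 8 of 9. HSP90AB1, HSPA8 and HSP90AA1 together made between 78.4% and 81.5% of the FPKM of the 10 genes in each library. The 10 genes summed to 2099.8 ± 51.2 FPKM in TIS CM, 2156 ± 53.1 in Cont CM and 2080.2 ± 29.9 in No CM (SD, n = 3 each), between 0.744% and 0.803% of all FPKM.

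**Figure D1:**
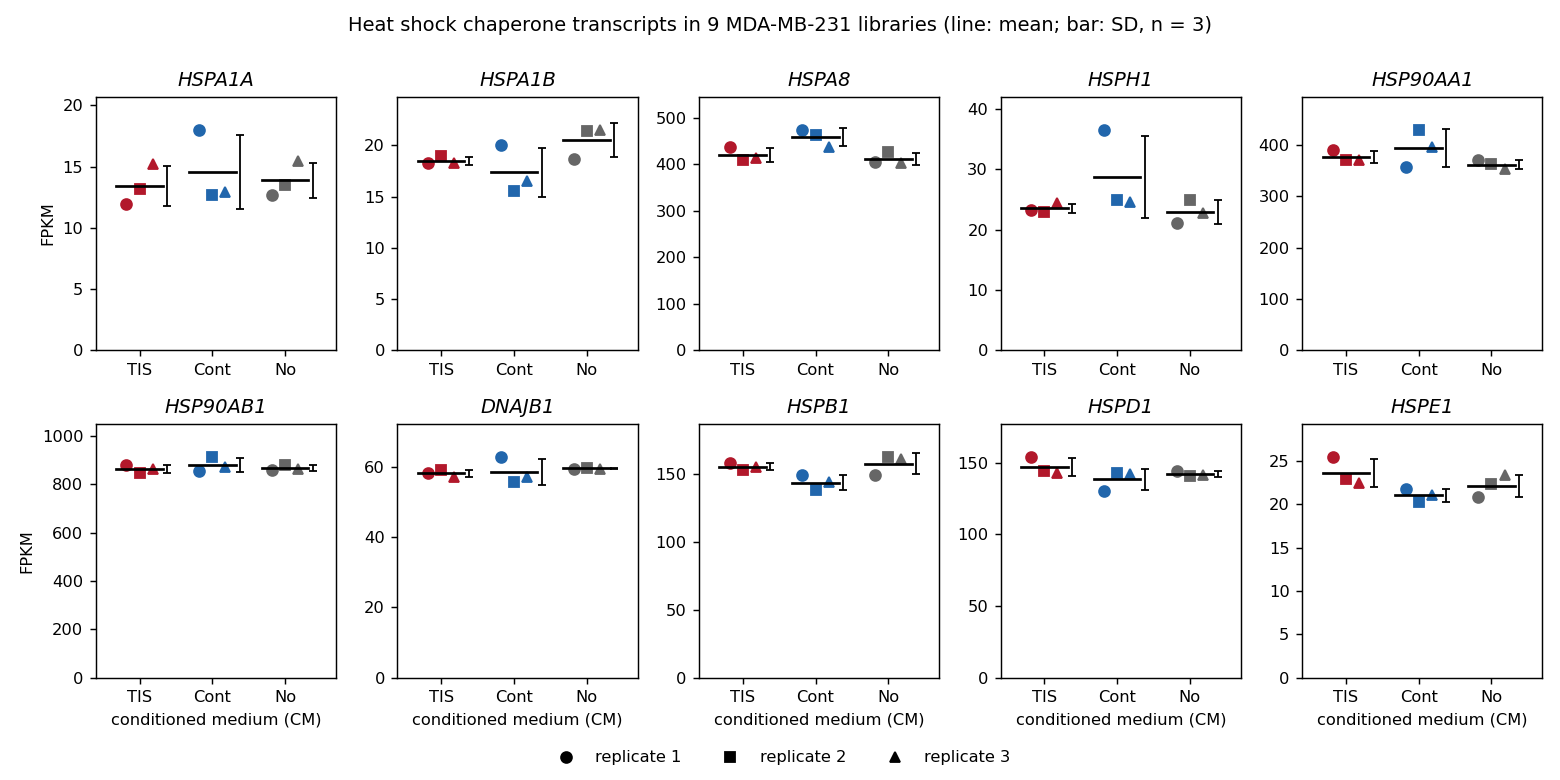
Level of the 10 chaperone genes in FPKM, 1 panel a gene, with a point for each of the 3 libraries of TIS CM, Cont CM and No CM, a line at the group mean and a bar of 1 SD. The highest HSPH1 point, 36.6 FPKM, and the highest HSPA1A point, 18.01 FPKM, belong to Cont CM replicate 1, while the 9 HSP90AB1 points lie between 845 and 914 FPKM.

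Whether the medium of senescent cells changed chaperone transcripts beyond medium from non-senescent cells was asked by setting TIS CM against Cont CM. Of the 10 genes, limma called 0 higher, against 2.9% of all tested genes, and 0 lower, against 1.57% (adjusted p under 0.05 over all tested genes), where 4.48% of all were called in either direction. Voom, a count-based weighting chosen after the data were seen, also called 0, and 3 of the 10, HSPA8, HSPB1 and HSPE1, had an unadjusted p under 0.05, as did 23.4% of all tested genes. The fold changes lay between 0.836 and 1.12, and their 95% intervals between 0.678 and 1.23, so that a 1.23-fold rise bounded the highest interval. The median log2 fold change of the 10 genes was -0.02, with 4 of 10 above 0, beside 0.00 over all tested genes, and 0.04 with 6 of 10 above 0 without Cont CM replicate 1.

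Conditioned medium from non-senescent cells was set against plain medium to show what conditioning does without senescence. In this comparison limma called 0 of the 10 higher, against 7.77% of all tested genes, and 0 lower, against 8.56%, where 16.3% of all were called. Unadjusted p was under 0.05 for 3 of the 10, HSPA1B, HSPA8 and HSPB1, and for 31.3% of all tested genes, and voom called HSPA8 higher and HSPA1B lower. Fold changes ran from 0.847 to 1.23 with 95% intervals between 0.736 and 1.51. The median log2 fold change was -0.00202, beside -0.000559 over all tested genes.

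TIS CM against No CM shows both steps together, and it shares its libraries with the other comparisons. Limma called 0 of the 10 higher, against 0.403% of all tested genes, and 0 lower, against 0.453%, where 0.855% of all were called. Voom also called 0, and 0 of the 10 had an unadjusted p under 0.05, against 13.6% of all tested genes. Fold changes lay between 0.904 and 1.06, with 95% intervals between 0.78 and 1.27. The median log2 fold change of the 10 was 0.01, beside 0.00 over all tested genes.

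**Figure D2:**
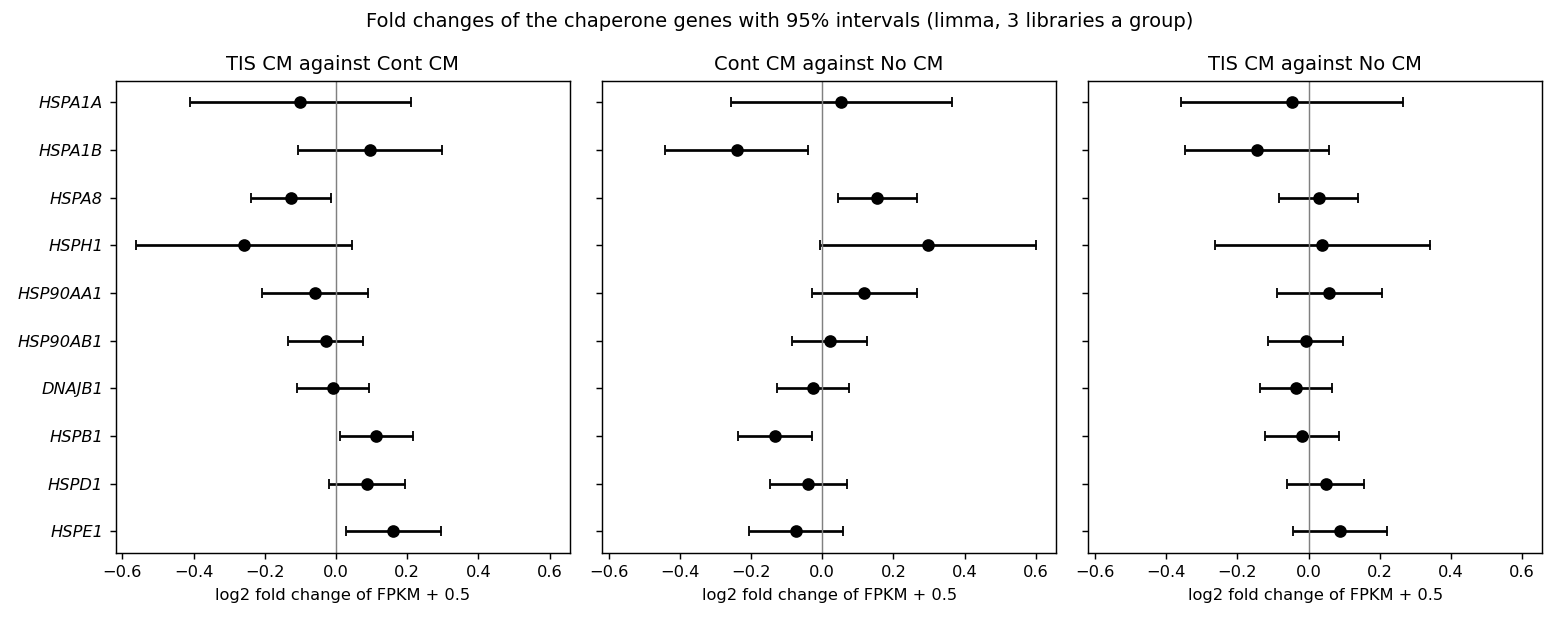
Log2 fold change of each chaperone gene, 1 panel a comparison, as the limma estimate with its 95% confidence interval on the log2(FPKM + 0.5) scale. Estimates run from -0.26 for HSPH1 in TIS CM against Cont CM to 0.30 for HSPH1 in Cont CM against No CM, and no gene passed an adjusted p of 0.05.

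HSPA8 is the Hsp70 that cells make without stress, and it held most of the counted Hsp70 message of the 10 genes. It is on chromosome 11 (123057489 to 123063230, minus strand, hg38). It had 436, 409 and 413 FPKM in the TIS CM libraries, 474, 463 and 437 FPKM in the Cont CM libraries and 404, 427 and 403 FPKM in the No CM libraries. The Cont CM libraries were the 3 highest, so Cont CM did not overlap with either other group, by a narrow margin from TIS CM replicate 1, and TIS CM and No CM overlapped. The level was 419.6 ± 14.5 FPKM in TIS CM, 458 ± 18.9 in Cont CM and 411 ± 13.7 in No CM (SD, n = 3 each).

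On the log2 scale HSPA8 was 0.15 higher in Cont CM than in No CM (SE 0.05, 1.11-fold, 95% interval 1.03 to 1.2), which missed the threshold in limma (adjusted p = 0.0629) and passed in voom (adjusted p = 0.0199). In TIS CM against Cont CM its log2 fold change was -0.13 (SE 0.05, limma adjusted p = 0.166), a fold of 0.916 with an interval of 0.848 to 0.99. Its difference between TIS CM and No CM was 0.03 on the log2 scale (limma adjusted p = 0.861). Of the 10 genes it was the single one whose Cont CM and No CM libraries did not overlap, where 33.3% of all tested genes had groups that did not overlap.

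HSPA1A (chromosome 6, 31815464 to 31817946) and HSPA1B (31827735 to 31830255) encode the stress-inducible Hsp70 and are near copies. Of the 100-base windows of the HSPA1A transcript, 69.9% occur unchanged in HSPA1B, and 68.8% of those of HSPA1B occur in HSPA1A. How the authors' counting divided or dropped shared reads therefore bears on each value. Reads that it dropped would be missing from the sum of both genes too. HSPA1A had 11.95, 13.1 and 15.2 FPKM in TIS CM, 18.01, 12.7 and 12.9 FPKM in Cont CM and 12.7, 13.5 and 15.5 FPKM in No CM. The groups overlapped, and Cont CM replicate 1 was the highest of the 9 libraries. The means were 13.4 ± 1.65 FPKM in TIS CM, 14.5 ± 3.00 in Cont CM and 13.9 ± 1.43 in No CM (SD, n = 3 each).

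HSPA1A had a log2 fold change of -0.10 in TIS CM against Cont CM (SE 0.14, limma adjusted p = 0.711, fold interval 0.752 to 1.16) and 0.05 in Cont CM against No CM (limma adjusted p = 0.831). Without Cont CM replicate 1 both values changed sign, to 0.06 and -0.10, with limma adjusted p of 0.762 and 0.516.

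HSPA1B had 18.3, 18.9 and 18.2 FPKM in TIS CM, 20.04, 15.6 and 16.5 FPKM in Cont CM and 18.6, 21.4 and 21.5 FPKM in No CM. Replicates 2 and 3 of Cont CM were the lowest of the 9 libraries, and replicate 1 of Cont CM lay within the range of No CM. In Cont CM against No CM the log2 fold change was -0.24 (SE 0.09, limma adjusted p = 0.0991), a fold of 0.847 with an interval of 0.736 to 0.973. Without Cont CM replicate 1 it was -0.35 and was called (limma adjusted p = 0.0081), and voom called it with all libraries (adjusted p = 0.0491). HSPA1B has a GC content of 58.7%, and once the dependence of each library on GC content and length was removed the value was -0.15 (limma adjusted p = 0.193). The part of that trend in the result was not tested further. Against Cont CM, TIS CM gave 0.10 (limma adjusted p = 0.565).

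HSPA1A and HSPA1B were also added together before the fit. The inducible Hsp70 message as counted was 30.2, 32.1 and 33.5 FPKM in TIS CM, 38.1, 28.3 and 29.4 FPKM in Cont CM and 31.3, 34.9 and 37.0 FPKM in No CM. The groups overlapped in each comparison. The log2 fold change of the sum was 0.01 in TIS CM against Cont CM (limma adjusted p = 0.96), -0.12 in Cont CM against No CM (0.501) and -0.10 in TIS CM against No CM (0.73). HSPA8 stood at 13.2 ± 1.10 times this sum in TIS CM, 14.6 ± 1.98 times in Cont CM and 12.01 ± 1.01 times in No CM (SD, n = 3 each).

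HSPH1 (chromosome 13, 31134974 to 31162388, minus strand) is an Hsp110 that exchanges nucleotide on Hsp70. It had 23.3, 22.9 and 24.4 FPKM in TIS CM, 36.6, 25.0 and 24.6 FPKM in Cont CM and 21.2, 25.0 and 22.7 FPKM in No CM. All TIS CM libraries were below all Cont CM libraries, by a narrow margin from replicates 2 and 3 of Cont CM and a wide one from replicate 1. The means were 23.6 ± 0.772 FPKM in TIS CM, 28.7 ± 6.81 in Cont CM and 23.0 ± 1.94 in No CM (SD, n = 3 each). The log2 fold change of -0.26 in TIS CM against Cont CM (SE 0.13, limma adjusted p = 0.283) became -0.07 without Cont CM replicate 1 (limma adjusted p = 0.492). The value of 0.30 in Cont CM against No CM (SE 0.13, limma adjusted p = 0.168, fold interval 0.996 to 1.51) became 0.11 without it (limma adjusted p = 0.246).

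DNAJB1 (chromosome 19, 14514770 to 14529770, minus strand), a J-domain protein that stimulates the ATPase of Hsp70 and a widely used readout of HSF1, had 58.2, 59.0 and 57.1 FPKM in TIS CM. It had 62.7, 55.7 and 57.1 FPKM in Cont CM and 59.4, 59.6 and 59.4 FPKM in No CM. The No CM libraries differed by less than 1 FPKM and lay inside the range of Cont CM, and all 3 TIS CM libraries were below them. The log2 fold changes were -0.01 in TIS CM against Cont CM (SE 0.04, limma adjusted p = 0.926, fold interval 0.927 to 1.07) and -0.03 in TIS CM against No CM (limma adjusted p = 0.80). DNAJB1 was the single gene of the 10 whose TIS CM and No CM libraries did not overlap, as was so for 24.4% of all tested genes.

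HSP90AB1 (chromosome 6, 44246166 to 44253888) had the least spread of the 10. Its levels were 881, 845 and 864 FPKM in TIS CM, 855, 914 and 874 FPKM in Cont CM and 859, 879.9 and 865 FPKM in No CM. The groups overlapped throughout, and the highest library was 1.08 times the lowest. Its SD around the group means, on the log2 scale, was 0.03, lower than that of all but 4.03% of tested genes, beside a median of 0.09. The log2 fold changes were -0.03 in TIS CM against Cont CM (limma adjusted p = 0.758, fold 0.98 with an interval of 0.911 to 1.05), 0.02 in Cont CM against No CM and -0.01 in TIS CM against No CM. Quantile normalization moved the last pair to -0.23 (limma adjusted p = 0.0724) and -0.21 (0.274).

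HSP90AA1 (chromosome 14, 102080738 to 102139699, minus strand) had 391, 369.9 and 371 FPKM in TIS CM, 356, 429.7 and 396 FPKM in Cont CM and 371, 362 and 353 FPKM in No CM. The lowest and the highest Cont CM libraries were replicates 1 and 2, and Cont CM overlapped with the other groups through replicate 1. The log2 fold change was -0.06 in TIS CM against Cont CM (SE 0.07, limma adjusted p = 0.631) and 0.12 in Cont CM against No CM (SE 0.07, limma adjusted p = 0.259). Without Cont CM replicate 1 the second was 0.19 and was called (limma adjusted p = 0.0282). HSP90AB1 stood at 2.29 ± 0.0378 times HSP90AA1 in TIS CM, 2.24 ± 0.141 times in Cont CM and 2.40 ± 0.0713 times in No CM (SD, n = 3 each).

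HSPB1 (chromosome 7, 76302544 to 76304295) forms oligomers that hold unfolded proteins without ATP. It had 159, 153 and 155 FPKM in TIS CM, 149.6, 138 and 144 FPKM in Cont CM and 149, 163 and 162 FPKM in No CM. All TIS CM libraries were above all Cont CM libraries, and No CM replicate 1 lay just below the highest Cont CM library. The log2 fold change was 0.11 in TIS CM against Cont CM (SE 0.05, 1.08-fold, interval 1.01 to 1.16, limma adjusted p = 0.178) and -0.13 in Cont CM against No CM (SE 0.05, limma adjusted p = 0.0819). HSPB1 was called lower in the second comparison without Cont CM replicate 1 (-0.16, limma adjusted p = 0.0395) and without No CM replicate 1 (-0.17, limma adjusted p = 0.0456). Its GC content of 64.3% was the highest of the 10. With the trend with GC content and length removed, the values were -0.01 in TIS CM against Cont CM (limma adjusted p = 0.954) and -0.03 in Cont CM against No CM (0.629).

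HSPD1 and HSPE1 lie head to head on chromosome 2 and make the barrel and the lid of the mitochondrial chaperonin. The table's span of HSPD1, 197486581 to 197516737 on the minus strand, includes all of HSPE1, 197499994 to 197503457 on the plus strand, and since the strand setting of the counting was not found in the labels or headers, reads of the exons that overlap cannot be told apart. HSPD1 had 154, 144 and 143 FPKM in TIS CM, 129.9, 143 and 142 FPKM in Cont CM and 144, 141 and 142 FPKM in No CM. The highest library was TIS CM replicate 1 and the lowest Cont CM replicate 1, while the other 7 lay between 141 and 144 FPKM. The log2 fold changes were 0.09 in TIS CM against Cont CM (SE 0.05, limma adjusted p = 0.307) and -0.04 in Cont CM against No CM (limma adjusted p = 0.626).

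HSPE1 had 25.4, 22.9 and 22.4 FPKM in TIS CM, 21.7, 20.3 and 21.0 FPKM in Cont CM and 20.8, 22.3 and 23.3 FPKM in No CM. All TIS CM libraries were above all Cont CM libraries, and both overlapped with No CM. Its log2 fold change of 0.16 in TIS CM against Cont CM (SE 0.06, 1.12-fold, interval 1.02 to 1.23) had the lowest adjusted p of the 10 in that comparison (limma adjusted p = 0.142). In all, 4 of the 10 genes had TIS CM and Cont CM libraries that did not overlap, HSPB1 and HSPE1 above and HSPA8 and HSPH1 below, where 28.6% of all tested genes did. HSPD1 stood at 6.24 ± 0.169 times HSPE1 in TIS CM, 6.60 ± 0.553 times in Cont CM and 6.43 ± 0.442 times in No CM (SD, n = 3 each). Mitochondrially encoded transcripts took 3.02% ± 0.0616 of fragments in TIS CM, 3.03% ± 0.259 in Cont CM and 2.39% ± 0.678 in No CM.

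For 7 of the 10 genes, all but HSPA8, HSPB1 and HSPE1, the range within Cont CM was wider than any difference between group means in FPKM. Single libraries vary more than means of 3 libraries do, and the share over all tested genes was not counted, so this count is a description only. In Cont CM replicate 1, set against the mean of the other Cont CM libraries on the log2 scale, HSPH1 was 0.55 higher, HSPA1A 0.47, HSPA1B 0.31 and DNAJB1 0.15. The differences of HSPH1 and HSPA1A lay at the 97.5th and 96.3rd percentile of all tested genes. HSPB1, HSPA8 and HSPE1 were between 0.07 and 0.08 higher in that library, whereas HSP90AB1 was 0.06 lower, HSPD1 0.13 lower and HSP90AA1 0.21 lower. Its 15 ER chaperones had 1 value above 0 and a median of -0.24. These values rest on 1 library, and 10% of all tested genes were below -0.25 and 10% above 0.28 in it. What sets that library apart was not tested.

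**Figure D3:**
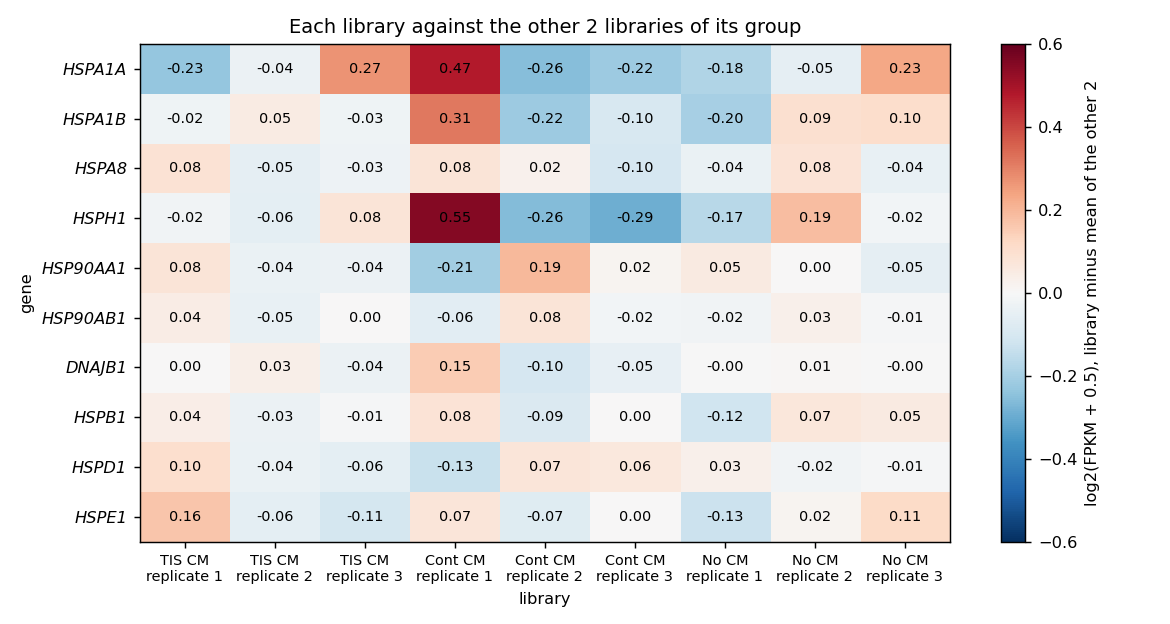
Heat map of each library minus the mean of the other 2 libraries of its group, in log2(FPKM + 0.5), with the 10 genes as rows and the 9 libraries as columns. The deepest colours are in the Cont CM replicate 1 column, at 0.55 for HSPH1 and 0.47 for HSPA1A, and the HSP90AB1 row is pale throughout.

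HSPH1 and HSPA1A also had the widest spread of the 10 over all libraries. The highest HSPH1 library was 1.73 times the lowest and that of HSPA1A 1.51 times, and the SD around the group means was above that of 86.1% and 86.7% of tested genes. HSPA8, HSPB1, DNAJB1 and HSPD1 lay between the 18.3rd and the 22.8th percentile. Counting error, at most 3.09% of the level for HSPA1A and 1.25% for HSPH1, was small beside these ranges.

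Across the 9 libraries the genes did not move as a block. Pearson's r of the log2 values, given as a description over libraries that share depth and base composition, was 0.79 between HSP90AA1 and HSP90AB1, 0.79 between HSPA8 and HSPH1 and 0.49 between HSPD1 and HSPE1. It was 0.73 between HSPA1A and HSPH1, but 0.07 over the 8 libraries without Cont CM replicate 1, so that relation rests on this library. Other pairs were closer without it: r of HSPA8 went from 0.43 to 0.90 with HSP90AA1 and from 0.48 to 0.90 with HSP90AB1. Between HSP90AA1 and HSP90AB1 it was 0.77 without that library. HSPA1B and HSPB1, both rich in GC, had r = 0.85, which was 0.17 with the trend with GC content and length removed. HSPA1B and HSP90AA1 had r = -0.92, and -0.87 with that trend removed.

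HSF1, the main regulator of the heat shock response, averaged 23.8 FPKM in TIS CM, 23.0 FPKM in Cont CM and 22.9 FPKM in No CM. HSF2, a related factor, averaged 9.18 FPKM in TIS CM, 9.61 FPKM in Cont CM and 9.30 FPKM in No CM. Neither was called in any comparison, and their log2 fold changes in TIS CM against Cont CM were 0.05 and -0.07 (limma adjusted p = 0.558 and 0.551). HSPA6, an Hsp70 that is nearly silent without stress, was listed at between 0.0715 and 0.524 FPKM and was too low to test. HSPA1L, a relative of the inducible Hsp70 genes that is mainly expressed in testis, lay between 0.592 and 1.05 FPKM, with overlapping groups.

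Around the 10 genes, 8 companion lists hold the rest of the chaperone network, chosen with earlier results of these data known. Of their genes 90 were tested. Limma called 4 of them higher and 0 lower in TIS CM against Cont CM, against 2.9% and 1.57% of all tested genes. In that comparison limma called 0 of 7 genes in a list of other Hsp70 and Hsp110 genes, while 2 had an unadjusted p under 0.05 and voom called 1 of them lower. It called 0 of 14 other J-domain cochaperones, 0 of 2 other HSPB genes and 0 of 4 genes for HSFs and their binding protein. In each of these lists 0 genes had an unadjusted p under 0.05, and voom called 0. Of 14 genes of the cytosolic chaperonin TRiC and of prefoldin it called 0, while 2 had an unadjusted p under 0.05 and voom called 1 gene higher.

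Of 19 exchange factors and Hsp90 cochaperones 1 rose in TIS CM against Cont CM. This was UNC45A, a myosin chaperone that works with Hsp90, with 8.59, 8.75 and 8.92 FPKM in TIS CM against 7.83, 6.83 and 7.43 FPKM in Cont CM (log2 fold change 0.24, limma adjusted p = 0.0435). Of 15 other mitochondrial chaperones and proteases 1 rose, LONP1, a protease of the matrix, with 33.8, 34.0 and 34.0 FPKM in TIS CM against 28.2, 31.0 and 30.8 FPKM in Cont CM (0.17, limma adjusted p = 0.0463). In both genes all TIS CM libraries were above all Cont CM libraries. Each call lay close to the threshold and was lost when any 1 of the 8 libraries other than Cont CM replicate 1 was left out, and also with the trend with GC content and length removed, with adjusted p up to 0.132 for UNC45A and 0.563 for LONP1 over 21 alternatives.

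In Cont CM against No CM limma called 5 of the 90 tested companion genes higher and 5 lower. Neither share was above that of all tested genes, of which 7.77% were called higher and 8.56% lower. BAG1, an exchange factor of Hsp70, fell, with 9.09, 9.48 and 10.3 FPKM in Cont CM against 13.2, 12.4 and 12.99 FPKM in No CM (log2 fold change -0.40, limma adjusted p = 0.00196), and was called under 21 of 21 alternatives. BAG3, another exchange factor and itself a target of HSF1, fell, with 40.4, 41.7 and 42.5 FPKM in Cont CM against 45.9, 49.0 and 46.7 FPKM in No CM (-0.18, limma adjusted p = 0.0101). The groups did not overlap for either gene, and the other 17 tested exchange factors and cochaperones were not called.

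HSPA9, the Hsp70 of the mitochondrial matrix that brings proteins in and passes clients to Hsp60, rose, with 62.7, 62.3 and 62.3 FPKM in Cont CM against 54.2, 57.2 and 55.8 FPKM in No CM (log2 fold change 0.16, limma adjusted p = 0.0095). It was the 1 gene called of 15 mitochondrial chaperones and proteases. The calls of BAG3 and HSPA9 were lost in 1 of 21 alternatives, the removal of the trend with GC content and length (adjusted p = 0.0979 and 0.0701). Both genes kept their call when any 1 library was left out.

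Of the 7 genes in the list of other Hsp70 and Hsp110 genes 2 rose in Cont CM against No CM. HSPA4, an Hsp110 like HSPH1, had 60.1, 61.6 and 61.5 FPKM in Cont CM against 54.7, 55.7 and 56.4 FPKM in No CM (log2 fold change 0.14, limma adjusted p = 0.0182). HSPA4L, its close relative, had 6.39, 7.00 and 6.70 FPKM in Cont CM against 5.96, 5.67 and 5.89 FPKM in No CM (0.18, limma adjusted p = 0.026). Of 14 genes of TRiC and prefoldin 1 rose, CCT8, with 98.1, 106 and 103 FPKM in Cont CM against 94.4, 93.8 and 94.0 FPKM in No CM (0.12, limma adjusted p = 0.048).

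The calls of HSPA4, HSPA4L and CCT8 were lost with the trend with GC content and length removed and with the replicate number as a block. They were also lost when the fit held only the 2 groups compared, and HSPA4 and CCT8 were lost on rescaling to equal library sums. HSPA4 lost its call without Cont CM replicate 3, No CM replicate 1 or No CM replicate 2 (adjusted p up to 0.0872 over all alternatives). HSPA4L lost it when replicate 2 or 3 of Cont CM or any 1 No CM library was left out (up to 0.0819), and CCT8 when any 1 of the 8 libraries other than Cont CM replicate 1 was (up to 0.128). Limma called 0 of 14 J-domain cochaperones, 1 of which had an unadjusted p under 0.05, and voom 0. Of the 4 genes for HSFs and their binding protein both called 0, and 0 had an unadjusted p under 0.05. Of 2 other HSPB genes limma called 0, though both had an unadjusted p under 0.05, and voom called 1 lower. In TIS CM against No CM limma and voom called 0 of the 90 tested companion genes, with 13 at an unadjusted p under 0.05.

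**Figure D4:**
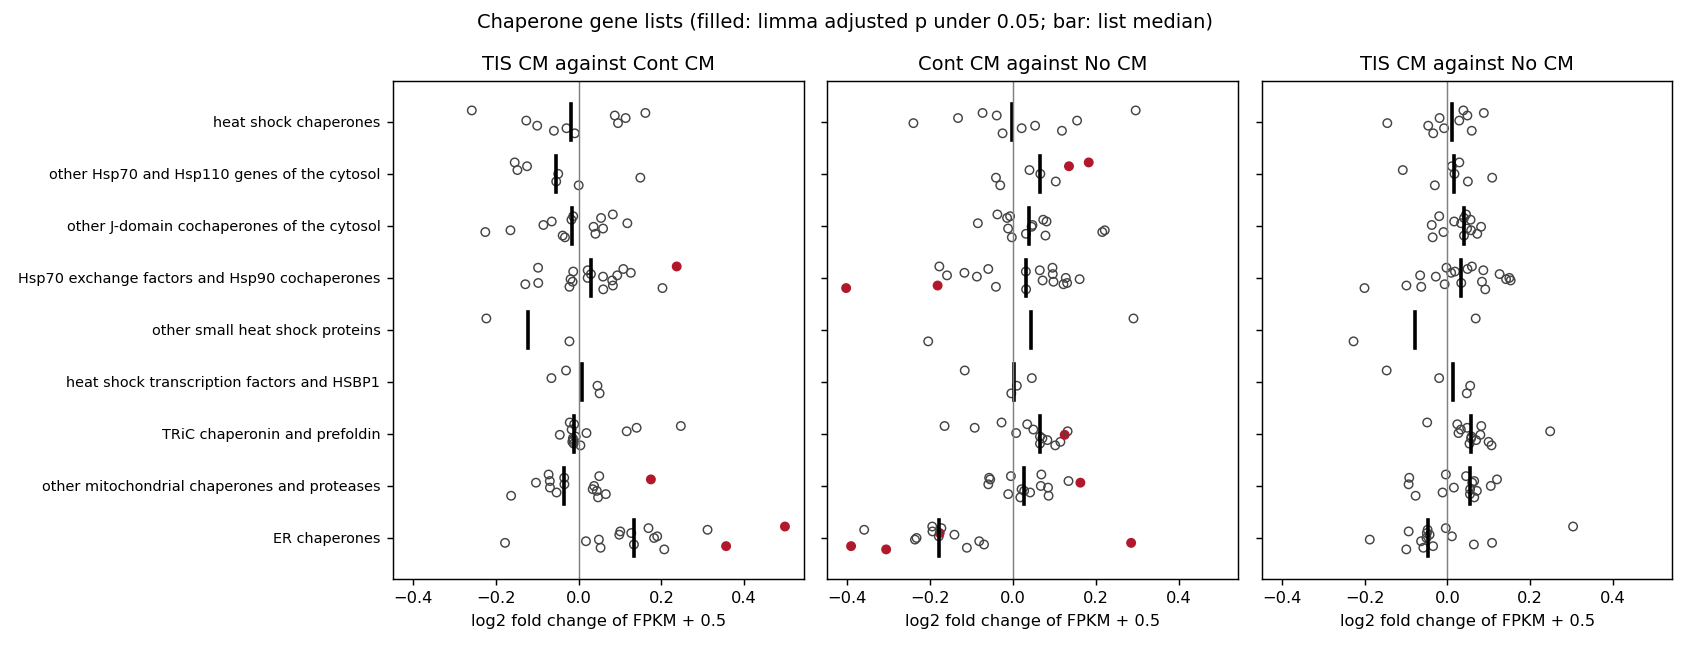
Log2 fold change of each tested gene of the 10 chaperone genes and the 8 companion lists, 1 panel a comparison, with filled points for genes at a limma adjusted p under 0.05 and a bar at each list's median. The ER chaperones have medians of 0.13 in TIS CM against Cont CM (0.07 without Cont CM replicate 1) and -0.18 in Cont CM against No CM (-0.09 without it), and the 10 genes medians of -0.02 and -0.00202.

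The chaperones of the endoplasmic reticulum, which answer chiefly to the unfolded protein response, gave other values. In TIS CM against Cont CM 14 of 15 had a fold change above 0, with a median log2 value of 0.13, where 4 of the 10 cytosolic and mitochondrial genes were above 0. In Cont CM against No CM 1 of 15 was above 0, with a median of -0.18, where 5 of the 10 were. Without Cont CM replicate 1, in which these genes were low, 9 of 15 were above 0 in TIS CM against Cont CM with a median of 0.07, and 1 of 15 in Cont CM against No CM with a median of -0.09. These comparisons share the Cont CM libraries, so their values are not independent, and the difference between the lists was not tested.

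Limma called 2 of the 15 ER genes higher in TIS CM than in Cont CM, SDF2L1, a partner of the ER Hsp70 (log2 fold change 0.50, adjusted p = 0.017), and CRELD2, an ER stress gene (0.36, adjusted p = 0.0444). In Cont CM against No CM CRELD2 (-0.39, limma adjusted p = 0.0133), the lectin chaperone CALR (-0.31, 0.0458) and the disulfide isomerase P4HB (-0.18, 0.0442) fell and DNAJB9, a J-domain protein of the ER, rose (0.29, 0.037). SDF2L1 lost its call when any 1 TIS CM library or Cont CM replicate 2 was left out. CRELD2 lost it in the first comparison when any 1 library other than No CM replicate 3 was left out, and in the second when No CM replicate 3 was. CALR lost its call when any 1 TIS CM or No CM library was left out, P4HB when any 1 of those or Cont CM replicate 2 was, and DNAJB9 when TIS CM replicate 3, Cont CM replicate 1 or 3, or any 1 No CM library was. Removal of the trend with GC content and length also ended the calls of SDF2L1, CALR, P4HB and DNAJB9 and that of CRELD2 in the first comparison.

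Pseudogenes of the 10 genes are near copies that can take or give reads. The table lists 73 of them, the readthrough gene HSPE1-MOB4 included, of which 46 were at 0 in every library and 5 had a mean of at least 0.5 FPKM. HSPE1P2 had 5.73, 5.06 and 6.30 FPKM in TIS CM, 6.24, 8.48 and 8.17 FPKM in Cont CM and 4.97, 4.53 and 5.997 FPKM in No CM. It was called higher in Cont CM than in No CM (log2 fold change 0.52, limma adjusted p = 0.028), where HSPE1 itself had -0.07 (0.441). HSPD1P1 averaged 4.53 FPKM over all libraries, HSP90AA2P 2.19, HSP90AB3P 2.17 and HSPB1P1 0.68 FPKM, and none of these was called.

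As the genes with the most similar course, 5 protein-coding genes outside all lists had the highest Pearson correlation over the 9 libraries with the mean of the 10 standardized levels, among 10366 candidates. Among them were PSPC1 (r = 0.94), ACAT2 (0.92), CLCF1 (0.90) and RBM19 (0.90), given as a description. The mean itself was highest in Cont CM replicate 1, TIS CM replicate 1 and No CM replicate 2, and lowest in No CM replicate 1, so that each group held a library near the top. None of the 5 was called in any comparison, which is no separate result, since they were picked for following this mean.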

How the data were processed

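Polyadenylated RNA of 9 libraries was sequenced, 3 in each group, after capture on poly-T beads and priming with random hexamers, per the labels' protocols. Build hg38, HISAT2 2.0.5, fastp, DESeq2 1.20.0 and featureCounts 1.5.0-p3 stand in the submitters' processing notes without settings. The authors deposited FPKM for 58735 genes, with gene lengths and positions that match GENCODE 29. No source used here gives the strand setting of the counting.

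In every library 100% of the values above 0, once multiplied by length, were whole multiples of 1 step to within 0.01, which gave the fragments per library. Genes with a mean of at least 0.5 FPKM over the 9 libraries were tested, 13912 in all. A model with group means and an intensity trend was fitted to log2(FPKM + 0.5) of all 9 libraries with limma 3.58.1 (R 4.3.3), with Benjamini-Hochberg adjustment over all tested genes and a call at an adjusted p under 0.05. Fold changes are on that scale, which understates the change of low genes. Sequences came from RefSeq tables (GRCh38.p14, all 10 genes matched by symbol), and Python 3.11.15 with pandas 2.3.3 and matplotlib 3.10.9 did the rest.

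Named were all 10 genes, up to 4 called genes per direction of each companion list, HSF1, HSF2, HSPA6, HSPA1L, pseudogenes with a mean of at least 0.5 FPKM and the 5 genes of most similar course. A gene that the rule names is not reported here. The members and the lists were chosen with earlier results of these data known. Alternatives changed the pseudocount (0.1 and 1), the filter (none, and a mean of 2 FPKM), the genes tested, the scaling, the libraries, the block, the trend with GC content and length, the sum of HSPA1A and HSPA1B, and the test (voom on the recovered fragments, added after the data were seen).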

Additional observations from a re-analysis of the deposited data

How the results depend on the processing

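The 10 genes were refitted under 21 alternatives, 20 for HSPA1B, which has no value of its own where it is summed with HSPA1A. In TIS CM against Cont CM and in TIS CM against No CM 0 of them were called higher and 0 lower under each. In Cont CM against No CM, with 0 called higher and 0 lower over all libraries, voom called 1 higher and 1 lower. Leaving out 1 library at a time gave between 0 and 1 higher and between 0 and 2 lower there: 1 higher and 2 lower without Cont CM replicate 1, and 1 lower without No CM replicate 1. Of the fold changes of the 10 genes over these alternatives, 596 kept direction and side of the threshold, 6 passed it, 25 changed sign without ever being called, and 0 of those called reversed. For the named companion genes 108 calls were lost and 15 gained. The cause was not tested.

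With the replicate number as a block, 0 of the 10 were called in each comparison, and all genes called in TIS CM against Cont CM numbered 95 higher and 31 lower (404 and 219 without the block), in Cont CM against No CM 672 and 789 (1081 and 1191) and in TIS CM against No CM 2 and 2 (56 and 63). Among the named companion genes the block ended the calls of UNC45A, LONP1 and CRELD2 in TIS CM against Cont CM. In Cont CM against No CM it ended those of HSPA4, HSPA4L, CCT8, CALR and P4HB. Same-numbered libraries of different groups had deviations that correlated between -0.19 and 0.08, and differently numbered ones between -0.13 and 0.20. With 3 libraries a group this cannot show whether replicates were handled in parallel, which the labels do not state. The count of all genes called in TIS CM against Cont CM moved between 7 and 675 higher and between 4 and 460 lower over the alternatives, in Cont CM against No CM between 492 and 1332 higher and 583 and 1438 lower, and in TIS CM against No CM between 2 and 195 higher and 2 and 170 lower, so the background shares hold for the fit of all 9 libraries. Without TIS CM replicate 1 the calls in TIS CM against Cont CM were 7 and 4. Rescaling to equal library sums moved the share of calls that were higher to 41.8% in TIS CM against Cont CM (64.8% as deposited), and to 20.9% in TIS CM against No CM (47.1%). In the first, quantile normalization gave 53.2% and removal of the trend with GC content and length 52.1%. The planned count test was not run, since the deposited unit is FPKM. The number of libraries, 3 a group, limits the precision to the printed intervals.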
